A study of Homo sapiens with 3 samples.

Results

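Vesicles of the secretory pathway are shaped by protein coats and loaded by cargo receptors, and the genes of these coats and receptors were followed here by 3ʹREADS in nuclear RNA of UV-treated RKO cells. The set was chosen by gene name: names that start with SEC and a digit, with SAR1, TMED or KDELR, with GGA and a digit, or with AP1, AP2, AP3 or AP4 followed by B, M or S, together with the named COPI coat genes and ARF GTPases. It holds 60 of the 9431 genes and 265 of the 31565 poly(A) sites (pAs) in the table. Of the 265 pAs, 176 were in 3ʹ-most exons, 83 in introns and 6 in upstream exons, the last with 1 read each. The name rule used no measured value.

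RKO is an established, poorly differentiated human colon carcinoma cell line. Cells were left untreated (0 h, baseline) or irradiated with UV and allowed to recover for 0.5 h or 2 h, and no other allele or agent is given for any of the 3 groups. Each time point is 1 library of nuclear RNA, so every test below compares the reads of 2 libraries, carries no spread between replicates, and gives intervals of counting error only. In 3ʹREADS the fragment next to the poly(A) tail is sequenced, so that 1 read marks 1 transcript end and levels of different genes need no correction for length. The libraries hold 433261, 501838 and 438040 reads at 0, 0.5 and 2 h, and 1 read equals 2.31, 1.99 and 2.28 RPM, the reads scaled to the library total, respectively. The 3 windows compared, 0–0.5 h, 0.5–2 h and 0–2 h, share libraries with each other, so their results are not independent.

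Of 5 epithelial markers, KRT8, KRT18 and EPCAM were listed, with 13, 13 and 30 reads in all at 0, 0.5 and 2 h, of which KRT8 took 4, 4 and 26. EPCAM had 7, 6 and 0 reads. CD68, a lysosomal membrane protein of macrophages and of many other cells and the 1 leukocyte marker listed, had 2037, 2589 and 1965 reads. The part of these markers in the results was not tested. PTPRC, CD3E, KRT19, CDH1 and the markers of colon epithelium, of mesenchymal cells and of nuclear RNA are not analysed here.

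COPII coats carry newly made proteins from the endoplasmic reticulum (ER) to the Golgi, COPI coats return escaped ER proteins and Golgi enzymes, and clathrin adaptors sort cargo at the trans-Golgi network, endosomes and plasma membrane. SAR1 and ARF GTPases start coat assembly, p24 proteins (TMED) and KDEL receptors pick cargo, and the SEC61 translocon with the signal peptidase feeds proteins into the ER. These are housekeeping functions of every secreting cell, and many of these genes respond to ER stress.

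The members together took 3490, 3217 and 2850 reads, which was 0.806%, 0.641% and 0.651% of the reads in the table. The median level of a member was 42.7, 29.9 and 29.7 RPM at 0, 0.5 and 2 h, and the range ran from 0 reads (3, 1 and 1 members) to 1618, 1229 and 1221 RPM of SEC61A1. The levels were thus very unequal, and 24 of the 60 members had fewer than 30 reads over the 3 libraries. By role, the 8 translocon and signal peptidase genes summed to 2507, 1893 and 1863 RPM, with 65.0% of their reads in SEC61A1, the pore subunit. The 3 KDEL receptors summed to 1957, 1459 and 1180 RPM, with 75.9% in KDELR2. The 12 AP genes summed to 1299, 835 and 1039 RPM, with 70.5% in AP2S1, the small subunit of the plasma membrane adaptor. Most reads of each of these 3 groups were thus those of a single gene, although without KDELR2 the KDEL receptors still went from 609 to 261 and 253 RPM. The 7 TMED genes summed to 672, 923 and 824 RPM, with 67.4% of their reads in TMED2, and without TMED2 to 291, 229 and 279 RPM. The 11 COPII genes summed to 690, 478 and 575 RPM, the 8 COPI genes to 379, 313 and 306 RPM and the 4 ARF genes to 293, 243 and 372 RPM. The 3 GGA adaptors had 180, 183 and 253 RPM, SEC22C had 53.1, 33.9 and 57.1 RPM, and the 3 SEC14-like genes had 25.4, 49.8 and 36.5 RPM. The plot of levels by role shows that members of the same role could lie far apart.

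**Figure D1:**
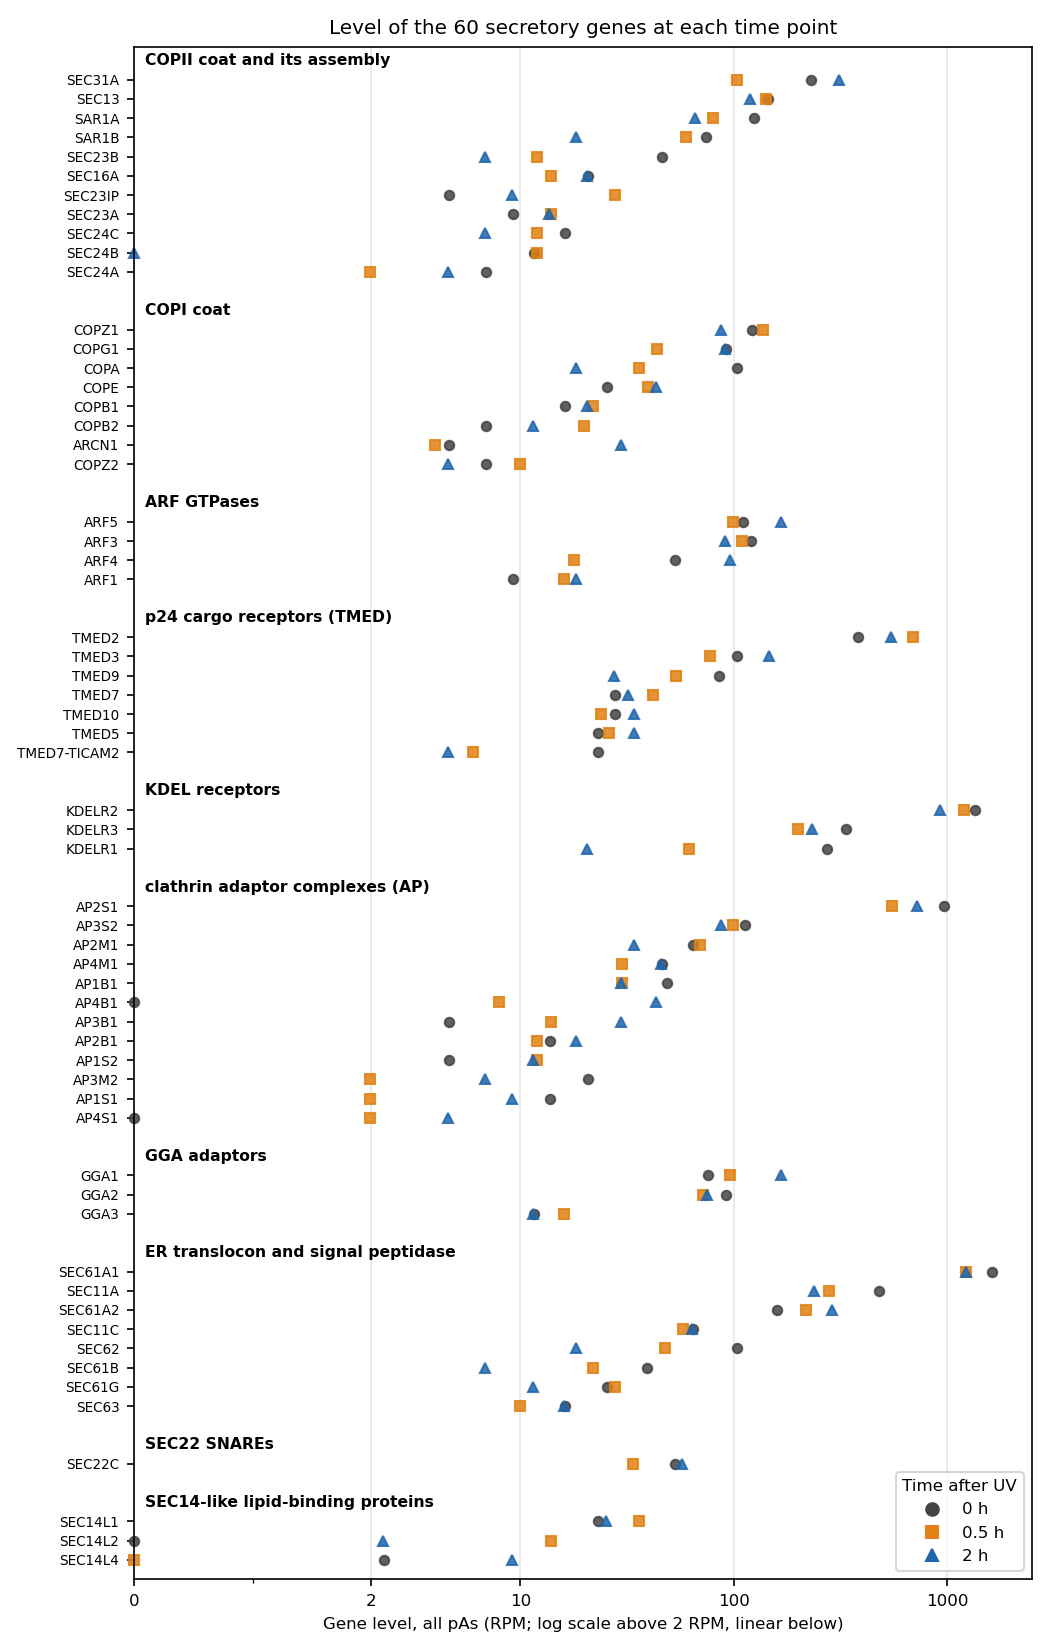
Level of each of the 60 members in RPM (axis logarithmic above 2 RPM and linear below) at 0, 0.5 and 2 h, 1 library per time point, with the genes grouped by role. SEC61A1, KDELR2 and AP2S1 lie at the top of their groups, with 1618, 1348 and 969 RPM at 0 h, and KDELR1 goes from 272 to 20.5 RPM.

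Because many genes of this pathway carry ER stress elements, the promoters of the members were searched for them. RefSeq promoters of GRCh38.p14 (from upstream of the start to just past it) were at hand for 54 of the 60 members. The unfolded protein response element (UPRE), a site known to be bound by XBP1 and ATF6, was searched as TGACGTGG on both strands. Its first letters are shared with cAMP response elements. It was present in 9 of the 54 members (16.7%), namely ARF1, COPA, COPB1, COPB2, KDELR3, SEC16A, SEC23A, SEC24A and SEC62, against 0.729% of all 35116 promoters and 1.20% of the 7220 other genes of the table with a promoter. A gene was counted when any of its promoters matched, so shares of genes and shares of promoters differ in unit. By gene, the UPRE letters were in 0.927% of all 27305 genes with a promoter. The motif was chosen with these genes in view, so its share is a description with no test. The ER stress element ERSE has the letters CCAAT and CCACG with 9 bases between them. It was in 0 of the 54 members, 0.0769% of all promoters and 0.125% of the other genes of the table. The related element ERSE-II has ATTGG and CCACG with 1 base between them. It was in 0 of the 54 members, 0.0541% of all promoters and 0.180% of the other genes of the table. With shares this low, the absence of both elements from 54 members says little. CCAAT alone was in 33.3% of the members, 34.6% of all promoters, 39.7% of all genes with a promoter and 44.0% of the other genes of the table. The next lines give 30 bases of the gene's strand for 6 members that carry the UPRE letters, with the match in capitals. These members include COPA and SEC62, which were lower after UV, and KDELR3, the KDEL receptor with the letters, and CCACGTCA is the motif read on the opposite strand.
COPA: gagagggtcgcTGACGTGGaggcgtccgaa
COPB1: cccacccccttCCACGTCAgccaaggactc
COPB2: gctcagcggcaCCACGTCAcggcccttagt
KDELR3: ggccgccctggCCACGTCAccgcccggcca
SEC23A: tcccctcctctTGACGTGGcagaggcggcg
SEC62: ccctcctcgctCCACGTCAgagggaaccgg

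In GRCh38.p14 these stretches lie at chr1:160343227-160343256 (COPA, minus strand), chr11:14499841-14499870 (COPB1, minus), chr3:139389825-139389854 (COPB2, minus), chr22:38468039-38468068 (KDELR3, plus), chr14:39103221-39103250 (SEC23A, minus) and chr3:169966779-169966808 (SEC62, plus). A match of letters is not a bound site. Of the 9 genes with the letters, COPA and SEC62 were lower in expression and SEC16A changed in 3ʹUTR-APA, as given below. The other 6 were called in no test. Of all members 46.7%, and of all genes 32.1%, were called in at least 1 test and window. Whether the letters go with the calls was not tested.

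To examine how expression of the members changed, all reads of a gene were summed and each gene was compared with the rest of the library by Fisher's exact test, with Benjamini-Hochberg adjustment over the 9431 genes (adjusted exact p). A gene was called higher or lower with an adjusted p under 0.05 and a log2 RPM ratio (0.1 RPM added to each value) beyond 1 or −1. RPM is a share of the library, so fewer cells with a transcript and less RNA per cell cannot be told apart. In the 0–0.5 h window 6 of the 60 members (10%) were called, all lower, against 5.91% of all genes called, 1.97% higher and 3.93% lower. In the 0.5–2 h window 7 members (11.7%) were called, 5 higher and 2 lower, where 9.59% of all genes were called, 5.07% higher and 4.52% lower. Over 0–2 h 12 members (20%) were called, 4 higher and 8 lower, where 11.9% of all genes were called, 4.61% higher and 7.24% lower. These shares were not compared at like read numbers. At least 30 reads were found in 36 of the 60 members but in only 3613 of the 9431 genes. Genes with fewer reads could show only large changes. With at least 30 reads, 47.2% of members and 53.4% of all genes were called in at least 1 test and window. Among the 36 members with at least 30 reads, the median log2 ratio was −0.33, −0.10 and −0.34 in the 3 windows, beside −0.10, −0.06 and −0.15 over all 3613 such genes. A log2 ratio below 0 was found in 26, 20 and 23 of these 36 members and in 2020, 1904 and 2081 of all 3613 such genes, so that members and all genes both had more ratios below 0 than above it.

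KDELR1, a receptor that returns ER residents bearing a KDEL tail, showed the largest fall among the called members. It had 118 reads (272 RPM) at 0 h, 31 reads (61.8 RPM) at 0.5 h and 9 reads (20.5 RPM) at 2 h. It was 4.41-fold lower at 0.5 h than at 0 h (95% interval 2.95 to 6.78, adjusted exact p = 3.14e-14), 3.01-fold lower at 2 h than at 0.5 h (1.40 to 7.18, adjusted exact p = 0.0210) and 13.3-fold lower over 0–2 h (6.75 to 29.7, adjusted exact p = 8.04e-24). The other KDEL receptors bind the same class of cargo, and neither was called. KDELR2 had 584, 601 and 406 reads, a log2 ratio of −0.54 over 0–2 h with an adjusted exact p of 1.74e-07 that did not reach the ratio threshold. KDELR3 had 146, 100 and 102 reads, with log2 ratios of −0.76, 0.22 and −0.53 in the 3 windows. The 3 receptors thus differed in size of change, although the difference between them was not tested.

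In the COPII group, SEC31A, the outer coat subunit, fell and then rose. It had 100 reads (231 RPM), 52 reads (104 RPM) and 136 reads (310 RPM), which was 2.23-fold lower at 0.5 h than at 0 h (1.58 to 3.18, adjusted exact p = 6.76e-05) and 2.996-fold higher at 2 h than at 0.5 h (2.16 to 4.21, adjusted exact p = 9.43e-11). SEC13, its partner in the outer coat, had 63, 71 and 52 reads and was not called. SAR1B, a GTPase that starts COPII assembly, had 32, 30 and 8 reads and was 3.27-fold lower at 2 h than at 0.5 h (1.47 to 8.26, adjusted exact p = 0.0167) and 4.04-fold lower over 0–2 h (1.83 to 10.2, adjusted exact p = 0.00146). Its paralog SAR1A had 54, 40 and 29 reads, a log2 ratio of −0.91 over 0–2 h, which stayed within the ratio threshold. Over 3ʹ-most-exon pAs only, SAR1A had 54 reads at 0 h and 25 at 2 h and was called lower. SEC23B, an inner coat subunit, had 20, 6 and 3 reads and was 3.86-fold lower at 0.5 h (1.495 to 11.7, adjusted exact p = 0.0304) and 6.74-fold lower over 0–2 h (2.00 to 35.4, adjusted exact p = 0.00323). The remaining 7 COPII genes were not called for expression and, apart from SEC13, had under 30 reads each.

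In the COPI group, COPA, the alpha subunit, had 45, 18 and 8 reads (104, 35.9 and 18.3 RPM). It was 2.90-fold lower at 0.5 h than at 0 h (1.64 to 5.32, adjusted exact p = 0.00162) and 5.69-fold lower over 0–2 h (2.65 to 14.0, adjusted exact p = 3.30e-06). COPG1, the gamma subunit, went the other way in the later window, from 22 to 40 reads, 2.08-fold higher (1.21 to 3.68, adjusted exact p = 0.0378), and was back at its 40 reads of 0 h. Counted over 3ʹ-most-exon pAs only, this rise of COPG1 no longer passed (log2 ratio 0.94, adjusted exact p = 0.1). ARCN1, the delta subunit, had 2, 2 and 13 reads, 7.45-fold higher at 2 h than at 0.5 h (1.69 to 68.0, adjusted exact p = 0.0248) and 6.43-fold higher over 0–2 h (1.46 to 58.7, adjusted exact p = 0.0488), both with wide intervals. COPZ1, the zeta subunit and the COPI gene with the most reads, had 53, 69 and 38 reads and was not called. Subunits of a single coat were therefore not called in a common direction.

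Among the ARF GTPases, which recruit COPI and several clathrin adaptors, ARF4 had 23, 9 and 42 reads (53.1, 17.9 and 95.9 RPM). It was 2.96-fold lower at 0.5 h than at 0 h (1.32 to 7.27, adjusted exact p = 0.0467) and 5.35-fold higher at 2 h than at 0.5 h (2.57 to 12.5, adjusted exact p = 9.59e-06). The fall at 0.5 h did not pass when libraries were scaled by the median of ratios (log2 ratio −1.49, adjusted exact p = 0.0693). ARF5, with 48, 50 and 73 reads, and ARF3, with 52, 55 and 40 reads, were not called, and neither was ARF1 at 4 to 8 reads.

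Of the p24 cargo receptors, TMED9 had 37, 27 and 12 reads and was 3.12-fold lower over 0–2 h (1.59 to 6.57, adjusted exact p = 0.00351). TMED2, which helps recruit COPI coats to Golgi membranes, had 165, 348 and 239 reads (381, 693 and 546 RPM), a log2 ratio of 0.86 at 0.5 h against 0 h with an adjusted exact p of 6.30e-09, short of the ratio threshold. Over 3ʹ-most-exon pAs only, TMED2 (144 and 346 reads) was called higher at 0.5 h than at 0 h. With all pAs summed, TMED3, with 45, 39 and 64 reads, and the other TMED genes were not called.

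Over 0–2 h, 2 of the 12 AP genes and 1 of the 3 GGA genes were called higher, where 4.61% of all genes were. None of these adaptor genes was called lower in any window, where 3.93%, 4.52% and 7.24% of all genes were. Over 3ʹ-most-exon pAs only, AP1B1 (21 reads at 0 h and 6 at 2 h) and AP3M2 (9 and 0) were called lower over 0–2 h. AP4B1, the beta subunit of AP-4, had 0, 4 and 19 reads. It was 5.44-fold higher at 2 h than at 0.5 h (1.81 to 22, adjusted exact p = 0.00681) and at least 6.26-fold higher than at 0 h (against a floor of 3 reads in the 0 h library, adjusted exact p = 7.74e-05). That bound leaves out the counting error of the 19 reads, and the exact lower limit of the ratio was 4.62. GGA1, a monomeric adaptor of the trans-Golgi network, had 33, 48 and 73 reads (76.2, 95.6 and 167 RPM) and was 2.19-fold higher over 0–2 h (1.43 to 3.41, adjusted exact p = 0.00179). AP3B1, the beta subunit of AP-3, had 2, 7 and 13 reads and was 6.43-fold higher over 0–2 h (1.46 to 58.7, adjusted exact p = 0.0488). Of the reads of AP3B1, 2, 7 and 12 were intronic, so the call rested on intronic pAs and was lost over 3ʹ-most-exon pAs only. AP2S1, with 420, 278 and 315 reads, had a log2 ratio of −0.81 at 0.5 h (adjusted exact p = 3.03e-11) and was not called.

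Of the 8 translocon and signal peptidase genes, 3 were called lower over 0–2 h and none higher. Of all genes, 7.24% were called lower and 4.61% higher in this window. SEC62, a partner of SEC61 in protein import, had 45, 24 and 8 reads and was 2.17-fold lower at 0.5 h (1.30 to 3.73, adjusted exact p = 0.0290) and 5.69-fold lower over 0–2 h (2.65 to 14.0, adjusted exact p = 3.30e-06). SEC61B, the beta subunit of the pore complex, had 17, 11 and 3 reads and was 5.73-fold lower over 0–2 h (1.66 to 30.5, adjusted exact p = 0.0131). SEC11A, a catalytic subunit of the signal peptidase, had 208, 141 and 104 reads and was 2.02-fold lower over 0–2 h (1.59 to 2.58, adjusted exact p = 6.72e-08). Its ratio lay at the threshold, and with median-of-ratios scaling it was −0.91 on the log2 scale and was not called. SEC61A1 itself had 701, 617 and 535 reads with log2 ratios of −0.40, −0.01 and −0.41, and SEC11C had 28, 29 and 28 reads. SEC61A2, a paralog of SEC61A1, had 69, 109 and 126 reads and a log2 ratio of 0.85 over 0–2 h (adjusted exact p = 0.00106), also short of the threshold. SEC22C, with 23, 17 and 25 reads, and SEC14L1, with 10, 18 and 11 reads, were not called.

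**Figure D2:**
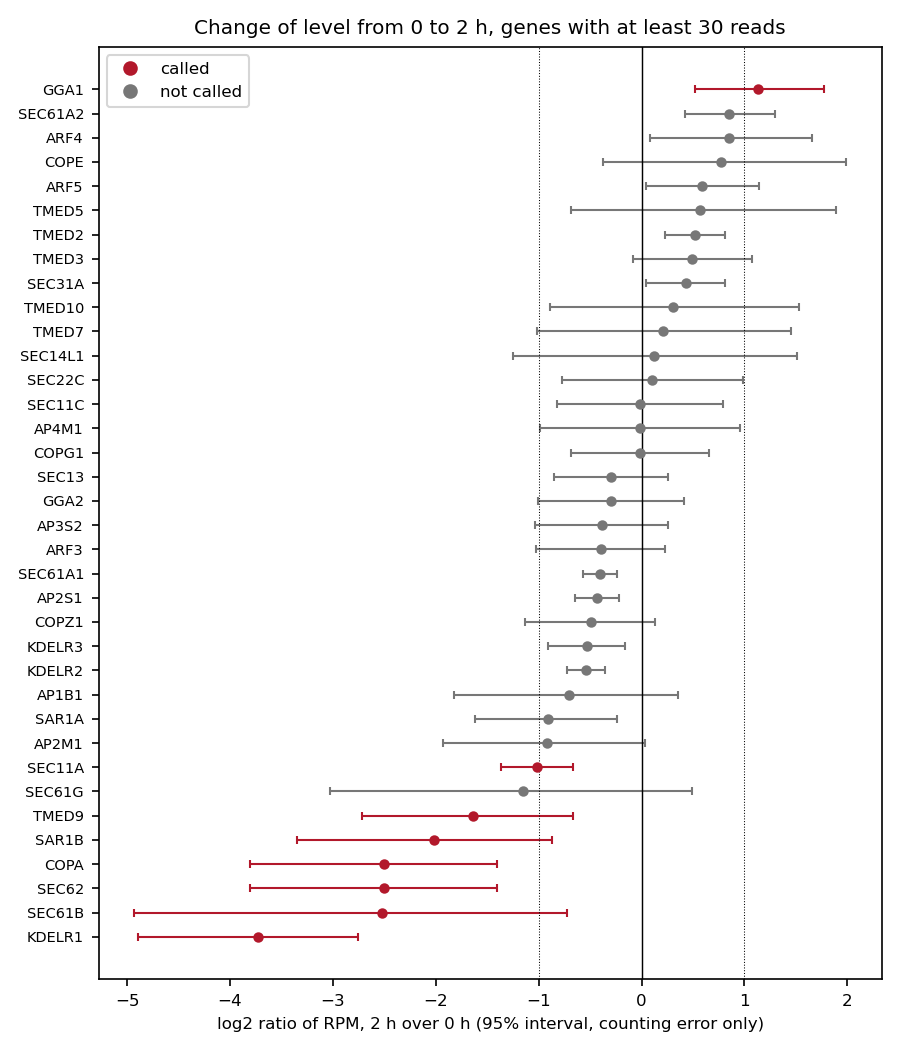
Log2 ratio of RPM at 2 h over 0 h for the 36 members with at least 30 reads over the 3 libraries, with 1 library per time point, nothing added to the values, and bars for the 95% counting interval; red points were called and dotted lines mark a log2 ratio of 1 and −1. KDELR1 lies lowest (13.3-fold lower), followed by SEC61B, COPA and SEC62, and GGA1 is the highest (2.19-fold higher).

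The members were next compared for 3ʹUTR-APA, that is, the relative use of the 2 most abundant pAs of the 3ʹ-most exon, of which the proximal pA gives the shorter 3ʹUTR. Of the 60 members, 40 had at least 2 such pAs, 18 had 1, and SEC61A2 and SEC14L1 had none listed. The 2 compared pAs of a member lay 25 to 14888 nt apart, with a median of 717 nt beside 609 nt over 4491 other genes. A gene was called with p under 0.05 by Fisher's exact test, unadjusted, and a change above 5 percentage points in the share of the proximal pA. In the 0–0.5 h window 5 of 37 testable members (13.5%) were called, against 12.1% of all testable genes (6.53% with a rise and 5.56% with a fall of the proximal share). In the 0.5–2 h window 5 of 31 (16.1%) were called, against 15.4% (8.3% rise and 7.13% fall), and over 0–2 h 4 of 34 (11.8%), against 12.6% (6.75% rise and 5.82% fall). The share of members called was thus close to the background in each window. The proximal share rose in KDELR1, SAR1A and SEC11A in the first window, in ARF3, SEC16A and TMED9 in the second, and in ARF3, KDELR1 and SAR1A over 0–2 h. It fell, in favor of the distal pA, in SEC24B and SEC63, then in GGA2 and SEC11A, and in GGA2 over 0–2 h. A share can rise without more reads at the proximal pA, so the reads of both pAs are given for each gene. After adjustment for the number of testable genes, 3, 1 and 3 of these calls passed in the 3 windows.

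KDELR1, the receptor gene whose level fell, also had a rising share of its proximal pA. In hg19 its proximal pA lies at chr19:48886310 and its distal pA at chr19:48885827, 483 nt apart on the minus strand. The distal pA had 110, 20 and 3 reads at 0, 0.5 and 2 h, and the proximal pA had 8, 10 and 6. The fall of KDELR1 therefore lay in the distal pA isoform, while the reads of the proximal isoform stayed few at all times. The proximal share was 6.78% (95% exact interval 2.97 to 12.9) at 0 h, 33.3% (17.3 to 52.8) at 0.5 h and 66.7% (29.9 to 92.5) at 2 h. It rose from 0 to 0.5 h (p = 4.08e-04, adjusted p = 0.0249, Fisher's exact test) and over 0–2 h (p = 4.09e-05, adjusted p = 0.00350). Only 9 reads stand behind the value at 2 h.

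SAR1A, a GTPase that starts COPII assembly, also had a rising proximal share, the pAs lying at chr10:71912192 and chr10:71909960, 2232 nt apart on the minus strand. The proximal pA had 20, 34 and 20 reads and the distal pA 20, 1 and 0. Its proximal share was 50% (33.8 to 66.2), 97.1% (85.1 to 99.9) and 100% (83.2 to 100), with p = 3.92e-06 (adjusted p = 7.38e-04) for 0–0.5 h and p = 3.54e-05 (adjusted p = 0.00313) for 0–2 h by Fisher's exact test. A further pA, at chr10:71910003 and close to the distal one, had 6, 3 and 4 reads, so the long 3ʹUTR was not lost at 2 h. The call also passed when the most abundant pA was compared with all others of the exon.

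SEC11A, the signal peptidase subunit, changed and came back. Its pAs lie at chr15:85212960 and chr15:85212775, 185 nt apart on the minus strand. The proximal pA had 123, 110 and 59 reads and the distal pA 82, 28 and 45. The proximal share was 60% (52.9 to 66.8), 79.7% (72.0 to 86.1) and 56.7% (46.7 to 66.4), a rise in the first window (p = 1.47e-04, adjusted p = 0.0147, Fisher's exact test) and a fall in the second (p = 1.35e-04, adjusted p = 0.00944, Fisher's exact test). Both windows use the 0.5 h library. KDELR1 and SAR1A differ from SEC11A in that their share at 2 h lay above, and not near, the share at 0 h.

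**Figure D3:**
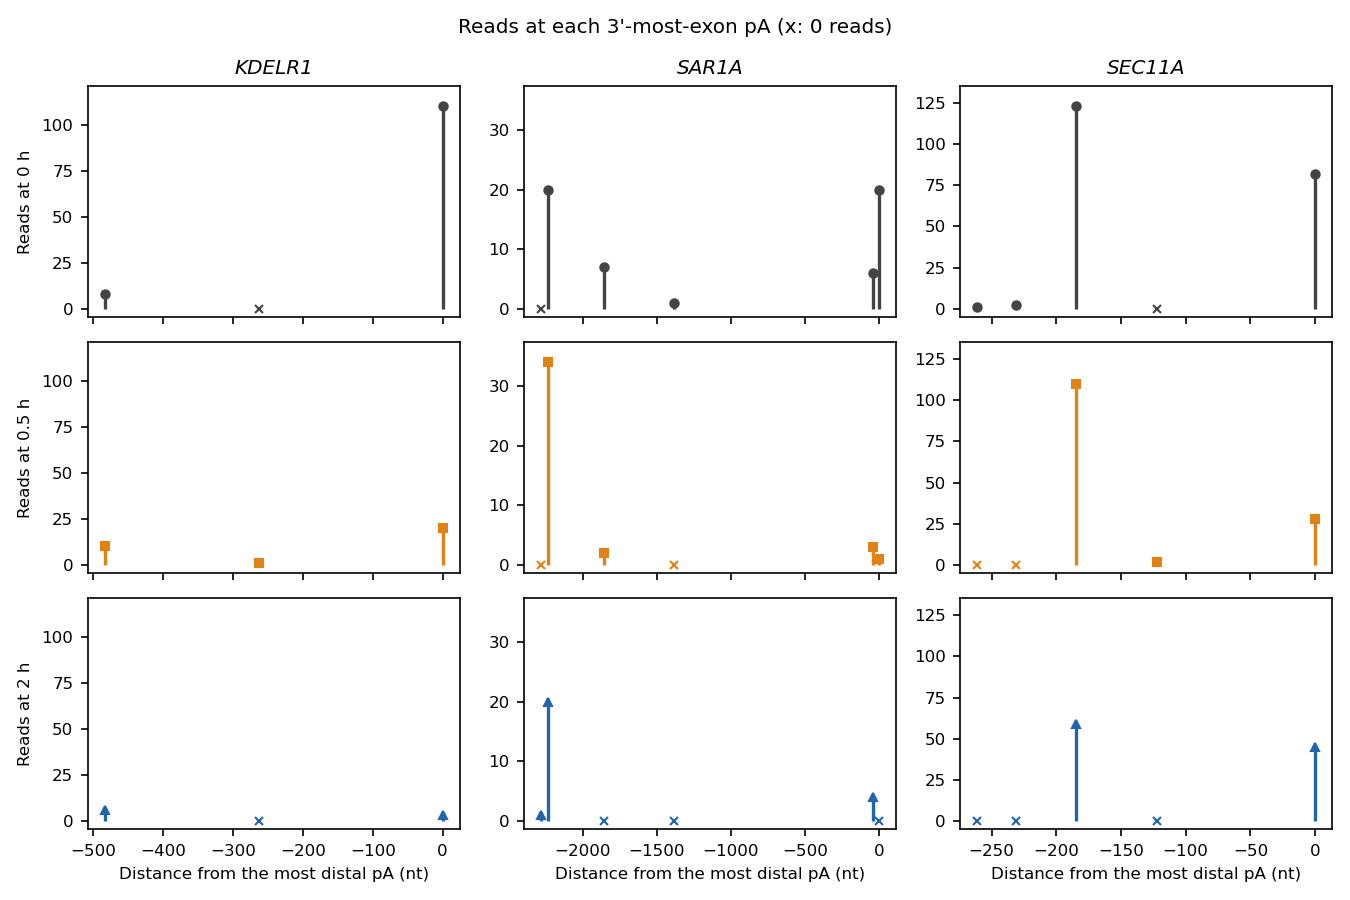
Reads at each 3ʹ-most-exon pA of KDELR1, SAR1A and SEC11A, plotted by distance in nt from the most distal pA of the gene, with 1 row for each time point (1 library each) and crosses for pAs with 0 reads. The tall distal bar of KDELR1 goes from 110 to 20 to 3 reads, that of SAR1A from 20 to 1 to 0, and that of SEC11A from 82 to 28 to 45.

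ARF3, an ARF GTPase of the Golgi, gained reads at a proximal pA (chr12:49331315) that lies 1323 nt before its main pA (chr12:49329992). The proximal pA had 0, 2 and 8 reads against 45, 49 and 30 at the main pA, a share of 0%, 3.92% and 21.1%. The change had p = 0.0165 (adjusted p = 0.175) for 0.5–2 h and p = 0.00124 (adjusted p = 0.0399) for 0–2 h by Fisher's exact test. Neither call was kept when the most abundant pA was set against all others (Fisher's exact test, p = 0.0962 and 0.183). GGA2, a clathrin adaptor of the trans-Golgi network, moved the opposite way, to the distal of its pAs at chr16:23477302 and chr16:23475643, 1659 nt apart. It had 14, 14 and 5 proximal and 14, 7 and 21 distal reads, a proximal share of 50%, 66.7% and 19.2%, with p = 0.00233 (adjusted p = 0.0646) for 0.5–2 h and p = 0.0240 (adjusted p = 0.242) for 0–2 h by Fisher's exact test. The adjusted p of GGA2 did not pass in either window.

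The other calls rested on few reads. TMED9, whose compared pAs are only 43 nt apart, had a proximal share of 26.5%, 7.41% and 50%, from 9, 2 and 6 proximal against 25, 25 and 6 distal reads (0.5–2 h p = 0.00563, adjusted p = 0.101, Fisher's exact test). SEC16A, a scaffold of ER exit sites, had 2, 1 and 6 proximal and 2, 6 and 0 distal reads (0.5–2 h p = 0.00466, adjusted p = 0.0932, Fisher's exact test). SEC24B, a cargo-binding COPII subunit, went from 5 proximal and 0 distal reads to 0 and 3 (0–0.5 h p = 0.0179, adjusted p = 0.229, Fisher's exact test). SEC63, a translocon partner of SEC62, went from 4 and 0 to 1 and 4 (0–0.5 h p = 0.0476, adjusted p = 0.366, Fisher's exact test). None of these 4 genes passed after adjustment.

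In several members with many reads the proximal share changed by less than the 5-point limit. The proximal share of KDELR2 was 96.6% (94.8 to 98.0), 94.9% (92.8 to 96.6) and 98.4% (96.6 to 99.4), that of SEC61A1 was 5.40% (3.83 to 7.37), 8.74% (6.60 to 11.3) and 6.02% (4.10 to 8.49), and neither gene was called in any window. TMED2 used its distal pA for 139 of 143, 341 of 341 and 205 of 207 reads. By Fisher's exact test the unadjusted p was 0.00463 for KDELR2 (0.5–2 h), 0.0207 for SEC61A1 (0–0.5 h) and 0.00740 for TMED2 (0–0.5 h), so these 3 genes missed the call by the size of the change alone. COPZ1 was not called either, with wider intervals, and had a proximal share of 79.2% (65.9 to 89.2), 75.8% (63.6 to 85.5) and 71.1% (54.1 to 84.6). None of the COPI genes, 7 of which were testable in each window, was called for 3ʹUTR-APA. Of all testable genes, 12.1%, 15.4% and 12.6% were called in the 3 windows, so the lack of calls among 7 genes says little. In addition, 4 of the 8 COPI genes had under 30 reads over the 3 libraries.

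**Figure D4:**
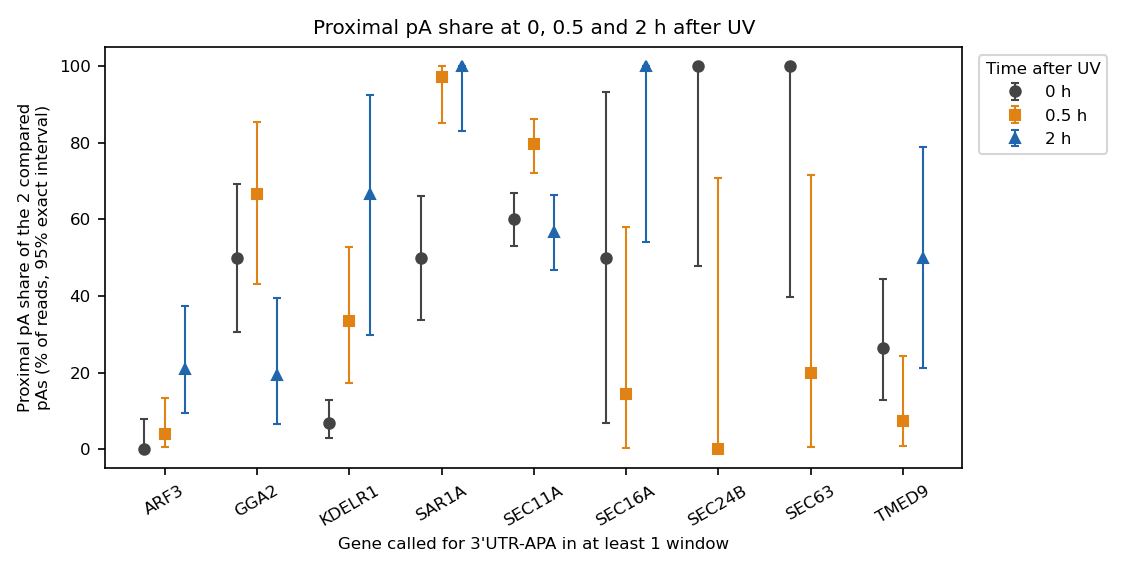
Share of the proximal pA among the reads of the 2 compared pAs (%, with 95% exact intervals of counting error) at 0, 0.5 and 2 h, 1 library each, for the 9 members called for 3ʹUTR-APA in at least 1 window. SEC24B and SEC63 had no reads at these pAs at 2 h; the intervals of KDELR1 and of SAR1A at 0 h (6.78% and 50%) lie below those at 0.5 and 2 h.

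Intronic pAs end the transcript before its last exon, which gives another coding end and 3ʹUTR. For intron-APA, the summed intronic reads of a gene were set against its summed 3ʹ-most-exon reads, with the same test and thresholds. In the 0–0.5 h window 1 of 19 testable members (5.26%) was called, TMED2, whose intronic share fell, against 9.34% of all testable genes (6.2% with a rise and 3.14% with a fall of the intronic share). From 0.5 to 2 h 7 of 30 (23.3%) were called, all with a rise of the intronic share, namely AP1B1, GGA3, SAR1A, SEC23IP, SEC63, TMED2 and TMED7, where 17.7% of all testable genes were called, 15.7% in this direction and 2.02% in the other. Over 0–2 h 6 of 29 (20.7%) were called, again all with a rise of the intronic share, namely AP1B1, AP3M2, SAR1A, SEC63, TMED7 and TMED7-TICAM2, where 17.0% of all testable genes were called, 15.7% in this direction and 1.3% in the other. After adjustment over all testable genes 1, 3 and 1 of these members passed.

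TMED2 had the most intronic reads of the members with a 3ʹ-most-exon pA. Its intronic pAs had 21, 2 and 27 reads and its 3ʹ-most-exon pAs 144, 346 and 212. The intronic share was 12.7% (8.05 to 18.8) at 0 h, 0.575% (0.0697 to 2.06) at 0.5 h and 11.3% (7.58 to 16.01) at 2 h, with p = 2.38e-09 (adjusted p = 3.10e-06) for the fall and p = 1.90e-09 (adjusted p = 6.48e-07) for the rise by Fisher's exact test. The share was thus low in the 0.5 h library alone, the library in which the total of TMED2 was highest. Nearly all of these reads, 21, 2 and 25, lay at a single pA at chr12:124069834, 11891 nt upstream of the first 3ʹ-most-exon pA.

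AP1B1, the beta subunit of the AP-1 adaptor, had 0 intronic reads of 21 at 0 h and 0 of 15 at 0.5 h, and 7 of 13 at 2 h. These 7 reads were spread over 3 pAs (2, 4 and 1 reads) that lay 46591, 7776 and 4134 nt upstream of the first 3ʹ-most-exon pA. The intronic share at 2 h was 53.8% (25.1 to 80.8), with p = 0.00145 (adjusted p = 0.0291) against 0.5 h and p = 3.19e-04 (adjusted p = 0.00959) against 0 h by Fisher's exact test. SEC63 had intronic reads of 2, 0 and 7 and 3ʹ-most-exon reads of 5, 5 and 0, with p = 0.00126 (adjusted p = 0.0263) for 0.5–2 h and p = 0.0210 (adjusted p = 0.163) for 0–2 h by Fisher's exact test. At 2 h no read of SEC63 reached its 3ʹ-most exon, although with 7 reads the exact interval of the intronic share reached down to 59.0%.

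SAR1A, whose proximal share rose in the 3ʹ-most exon, also gained intronic reads at 2 h. It had 0 of 54, 0 of 40 and 4 of 29 reads at 1 intronic pA (chr10:71929599, 17357 nt upstream), a share of 13.8% (3.89 to 31.7) at 2 h, with p = 0.0275 (adjusted p = 0.194) for 0.5–2 h and p = 0.0129 (adjusted p = 0.123) for 0–2 h by Fisher's exact test. TMED7, a p24 receptor, had 0 of 12, 0 of 21 and 5 of 14 intronic reads, all 5 at chr5:114955089, 3418 nt upstream (0.5–2 h p = 0.00617, adjusted p = 0.0789, Fisher's exact test). TMED7 shares 3 pA positions with the read-through gene TMED7-TICAM2, so the reads of these 2 entries cannot be fully told apart. The 3 positions are listed as 3ʹ-most-exon pAs of TMED7 and are the only intronic pAs of TMED7-TICAM2. The intronic reads of TMED7-TICAM2 were 1, 1 and 2, beside 9, 2 and 0 reads in the 3ʹ-most exon (0–2 h p = 0.0455, adjusted p = 0.257, Fisher's exact test). Its call over 0–2 h thus rested on reads that are also counted in the 3ʹ-most exon of TMED7.

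GGA3, SEC23IP and AP3M2 were called with 5 reads or fewer at 2 h. GGA3, a trans-Golgi adaptor, went from 0 of 8 intronic reads at 0.5 h to 3 of 5 at 2 h (p = 0.0350, adjusted p = 0.218, Fisher's exact test). SEC23IP, which binds SEC23 at ER exit sites, went from 3 of 14 to 4 of 4 (p = 0.0114, adjusted p = 0.116, Fisher's exact test). AP3M2, the mu subunit of AP-3, went from 0 of 9 at 0 h to 3 of 3 at 2 h (p = 0.00455, adjusted p = 0.0650, Fisher's exact test). None of these calls passed after adjustment.

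**Figure D5:**
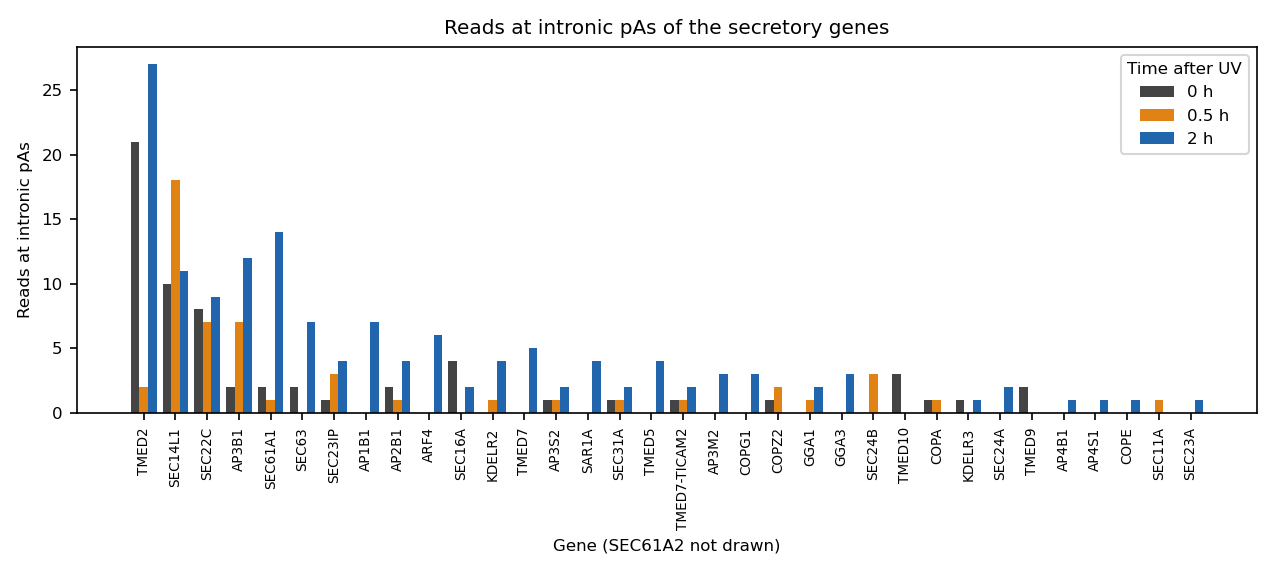
Reads at intronic pAs of each member with such pAs (bars; SEC61A2, with 69, 109 and 126 reads, is not drawn) at 0, 0.5 and 2 h, 1 library each. Blue bars (2 h) are the tallest in most genes, as in SEC61A1 with 2, 1 and 14 reads, whereas TMED2 is high at 0 h and 2 h and low at 0.5 h.

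Outside the calls, intronic reads at 2 h were spread thinly over many members. SEC61A1 had 2, 1 and 14 intronic reads among 701, 617 and 535, ARF4 had 0, 0 and 6, KDELR2 had 0, 1 and 4, and AP3B1 had 2, 7 and 12 over 10 pAs. Of the 83 intronic pAs of the members, 24 were detected at 0 h, 25 at 0.5 h and 58 at 2 h, that is 28.9%, 30.1% and 69.9%, beside 31.9%, 32.9% and 61.7% of the 11906 intronic pAs of all other genes. In 3ʹ-most exons, 129, 118 and 104 of the 176 pAs of the members were detected (73.3%, 67.0% and 59.1%). In all other genes the shares were 69.0%, 61.1% and 57.5% of 18239 such pAs, so the count fell in both. Of the intronic pAs, 45 (54.2%) had reads at 2 h only, 17 of them 1 read, and in all other genes 46.5% had reads at 2 h only. Counted by gene, 18, 17 and 29 of the 35 members with intronic pAs had any intronic read at 0, 0.5 and 2 h. In all other genes the counts were 2526, 2609 and 4086, also highest at 2 h. The number of other genes with intronic pAs was not counted, so no share by gene is given for them.

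Where a 3ʹ-most-exon pA was listed, the distance of an intronic pA to the first such pA could be measured for 73 pAs of 33 members. It ran from 1125 to 293561 nt with a median of 22122 nt, and 52 of the 73 lay over 10000 nt upstream. The 41 pAs detected at 2 h only lay in 25 members at a median of 18849 nt, 29 of them over 10000 nt upstream, and none had more than 5 reads.

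Pooled over the members, intronic pAs took 3.78% (3.17 to 4.47), 4.98% (4.25 to 5.79) and 9.48% (8.43 to 10.6) of the intronic and 3ʹ-most-exon reads at 0, 0.5 and 2 h, beside 6.90%, 6.02% and 8.48% in all other genes. Much of this sum came from SEC61A2, a gene with no 3ʹ-most-exon pA listed, whose pA at chr10:12206837 alone had 65, 104 and 113 reads. In members with pAs in the 3ʹ-most exon, the share was 1.55% (1.17 to 2.03), 1.07% (0.737 to 1.499) and 4.90% (4.12 to 5.79), or 53, 33 and 133 intronic reads, beside 5.60%, 4.87% and 7.17% in all other such genes. Without TMED2 it was 0.986%, 1.13% and 4.29%, from 32, 31 and 106 intronic reads. These last restrictions were chosen after seeing the data. Over all intronic pAs the members thus lay below the other genes at 0 and 0.5 h and above them at 2 h, and over genes with 3ʹ-most-exon pAs they lay below at each time, differences that were not tested. The share was highest at 2 h under each choice.

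As a frame, 70 other genes of the secretory pathway in the table (large adaptor and clathrin subunits, coat regulators, lectin receptors, SNAREs and tethers) were counted the same way. For 3ʹUTR-APA 5 of 31, 6 of 28 and 8 of 31 testable genes were called in the 3 windows, that is 16.1%, 21.4% and 25.8%. For intron-APA 1 of 24, 8 of 38 and 4 of 37 were called, that is 4.17%, 21.1% and 10.8%. In the 0.5–2 h window 7 of the 8 had a rise of the intronic share, namely ARL1, COG3, NAPA, RINT1, STX5, USO1 and YIF1A, and ZW10, a tether component, went the other way. For expression 8, 9 and 18 of the 70 were called, with 4, 5 and 9 higher and 4, 4 and 9 lower. Over 0–2 h the members had 4 higher and 8 lower calls, and this difference in direction was not tested. In all, 28 of the 60 members (46.7%) were called in at least 1 test and window and 32 in none, beside 32.1% of all 9431 genes. Among genes with at least 30 reads, 17 of 36 members (47.2%) were called in at least 1, beside 53.4% of all 3613 such genes, so the members' share lay above or below that of all genes depending on the reads required.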

How the data were processed

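Nuclear RNA of RKO cells was sequenced by 3ʹREADS, with 1 library for each of 3 time points. The submitters' processing notes name CASAVA, Bowtie2 and hg19, without versions. As pA-supporting reads the authors took those with 2 or more non-genomic As at the end, and each pA carries a gene and a type (3ʹ-most exon, intron, upstream exon). Values were deposited by the authors as RPM, scaled to the library total. The clustering of reads into pAs is not given in the sources used here. All values (100%) were whole multiples of 1 read within 4.00e-11 reads, so reads were recovered and tested as such. With no replicates a dispersion cannot be estimated, so no count model was fitted and Fisher's exact test (two-sided) was the count test. The study's thresholds for APA were used. Expression sums the reads of every pA type of a gene. Intervals are exact (Clopper-Pearson for shares, conditional for ratios) at 95%.

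A fold against a library at 0 uses a floor of 3 reads in that library, which is 6.92, 5.98 and 6.85 RPM at 0, 0.5 and 2 h. Reads carry no molecular identifiers, so intervals and floors cover counting error only. The software was scipy 1.17.1 and pandas 2.3.3 under Python 3.11.15 (numpy 2.4.6, and matplotlib 3.10.9 for plots). The code of the tests was checked on simulated reads with counting error only. That check had no spread between libraries, so it does not bear on whether the calls would recur in replicates. The members, role groups, list of other genes and promoter motifs were chosen with earlier results of these data known. Named genes are members called in any test, the member with the most reads of each role group, and KDELR1, which the study names. Further members are named as examples chosen after their values were seen (among them SEC13, SAR1A for its level, KDELR3, TMED3 and SEC61A2). Sequence around pAs and the introns themselves are not analysed here, since the reference at hand is of another build.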

Additional observations from a re-analysis of the deposited data

How the results depend on the processing

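No call of a member changed direction under the alternatives tried, and no paired analysis was possible because each time point has 1 library. The pooled intronic share did change direction from 0 to 0.5 h. It rose over all intronic pAs (3.78% to 4.98%) but fell without the intronic pA with the most reads (1.96% to 1.80%). After adjustment for all testable genes, 3 of 5, 1 of 5 and 3 of 4 members remained called for 3ʹUTR-APA (0–0.5, 0.5–2 and 0–2 h), and 1 of 1, 3 of 7 and 1 of 6 for intron-APA. With at least 10 reads in each library, 3ʹUTR-APA was called in 3 members between 0 and 0.5 h, and intron-APA in 4 (0.5–2 h) and 3 (0–2 h). KDELR1 could not be tested over 0–2 h under that minimum. Without the intronic pA with the most reads, which belongs to SEC61A2, the pooled intronic share was 1.96%, 1.80% and 5.74%. Restricting it to members with 3ʹ-most-exon pAs gave 1.55%, 1.07% and 4.90%, and leaving out TMED2 as well gave 0.986%, 1.13% and 4.29%; both were added after seeing the data. Median-of-ratios scaling raised the log2 ratio of 2 h over 0 h by 0.11 and ended the expression calls of ARF4 (0–0.5 h) and SEC11A (0–2 h). Over all expression alternatives 5 to 8, 7 and 11 to 15 members were called in the 3 windows. Counted over 3ʹ-most-exon pAs only, TMED2 was newly called higher and COPG1 lower over 0–0.5 h, and SEC23IP lower over 0.5–2 h. Over 0–2 h, AP1B1, AP3M2, SAR1A and TMED7-TICAM2 were newly called lower under that count. Of the named genes' calls under each alternative, 165 held and 23 did not pass. Calls that could not be tested under an alternative are in neither number. With at least 10 reads in each library, only 10 of 14 calls for 3ʹUTR-APA and 8 of 14 for intron-APA could be tested. With 1 read at about 2 RPM, members under 30 reads could show only large changes.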
